A study of Mus musculus with 2 samples.

Results

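The genes described here are 9 transcription factors that set the identity of myeloid cells: Spi1, Cebpa, Cebpb, Irf4, Irf8, Klf4, Maf, Zeb2, and Batf3. They were taken by name from both count files, where all 9 of 9 were found among 23946 genes with a UMI in either library. No measured value entered the rule, but the members were chosen with earlier results of these data known. The cells were CD45+ immune cells sorted from the hearts of adult female C57BL6 mice (C57BL/6J in the study's methods), with 3 hearts pooled into 1 droplet library for each group. The TTS group, named for a Takotsubo syndrome-like cardiomyopathy, was taken 24 hours after 1 intraperitoneal injection of the β-adrenergic agonist isoproterenol (ISO) at 200 mg/kg, and the Control group received the vehicle by the study's methods, although its label carries the same dose. The mice carried no engineered allele by the labels, and because hearts were pooled, mouse-to-mouse variation within a group cannot be seen.

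PU.1, the protein of Spi1, binds enhancers across the myeloid lineage and is needed for monocytes, macrophages, neutrophils, and many dendritic cells (DCs). C/EBPα and C/EBPβ, encoded by Cebpa and Cebpb, direct granulocyte and monocyte differentiation, and C/EBPβ is also induced in inflammation and is needed for Ly6C-low, or nonclassical, monocytes. IRF8 supports the monocyte lineage and, together with BATF3, the type 1 conventional DCs (cDC1), while IRF4 and KLF4 act in type 2 conventional DCs (cDC2). KLF4 also supports monocyte differentiation, ZEB2 restrains cDC1 identity and supports plasmacytoid DCs and macrophages, and c-Maf, the protein of Maf, supports macrophages of the resident, scavenging kind.

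The promoters of 4 members are shown because their transcripts gave some of the largest differences between classes or libraries in the data below. Each is the 250 bases before the RefSeq start site on GRCm38.p6, read 5′ to 3′ on the strand of the gene. Capitals mark TTCNNNGAA, the GAS element bound by STAT proteins, and TGACG, the core of the cAMP response element (CRE), on either strand. For Irf8 the first of its 2 RefSeq starts is shown. Cebpb lies at chr2:167688665-167688914 on the plus strand, Irf8 at chr8:120736108-120736357 on the plus strand, Klf4 at chr4:55532476-55532725 on the minus strand, and Batf3 at chr1:191098164-191098413 on the plus strand. The Batf3 window lies inside the GENCODE span of the gene, which begins further upstream.
Cebpb: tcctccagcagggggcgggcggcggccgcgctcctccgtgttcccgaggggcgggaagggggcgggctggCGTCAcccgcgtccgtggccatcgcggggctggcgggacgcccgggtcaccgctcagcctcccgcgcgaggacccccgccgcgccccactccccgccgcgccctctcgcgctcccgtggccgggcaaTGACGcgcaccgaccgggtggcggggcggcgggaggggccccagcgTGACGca
Irf8: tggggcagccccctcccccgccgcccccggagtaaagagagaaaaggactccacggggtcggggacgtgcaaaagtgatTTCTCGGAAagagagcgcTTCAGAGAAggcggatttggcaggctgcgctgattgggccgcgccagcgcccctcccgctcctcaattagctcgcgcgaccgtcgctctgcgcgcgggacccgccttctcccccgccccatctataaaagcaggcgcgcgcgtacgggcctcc
Klf4: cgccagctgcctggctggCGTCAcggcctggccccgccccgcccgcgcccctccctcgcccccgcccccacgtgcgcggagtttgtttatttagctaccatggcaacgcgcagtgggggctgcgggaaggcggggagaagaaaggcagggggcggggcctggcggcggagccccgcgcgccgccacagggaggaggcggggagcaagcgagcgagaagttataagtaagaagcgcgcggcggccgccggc
Batf3: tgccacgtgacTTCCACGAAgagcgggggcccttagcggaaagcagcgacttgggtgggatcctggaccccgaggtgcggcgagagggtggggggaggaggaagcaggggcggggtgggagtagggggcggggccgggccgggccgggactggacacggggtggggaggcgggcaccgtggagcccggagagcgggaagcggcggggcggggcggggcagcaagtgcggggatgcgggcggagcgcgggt
The Cebpb window held 3 CRE cores, which began 180, 53, and 7 bases before the start site. The Irf8 window held 2 GAS matches, which began 171 and 153 bases before the start site. The Klf4 window held 1 CRE core at 232 bases and the Batf3 window 1 GAS match at 239 bases. Of 32851 promoter windows of the same length, 7.02% held a GAS match and 17.8% held a CRE core. Of the other motifs searched on both strands, the ETS core GAGGAA (in 23.3% of windows) was found in the Batf3 window, 153 bases before the start site, and the C/EBP motif TTGCNNAA (9.56%), the AP-1 motif TGANTCA (6.75%), and the interferon-stimulated response element ISRE, searched by its consensus (2.98%), had no match in these 4 windows. These matches describe letters in the windows, and no binding was measured.

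Cells were placed in classes by marker genes, none of which is a member. The Control library held 47382455 UMIs (unique molecular identifiers, each of which counts 1 captured RNA molecule) in 5927 barcodes, and the TTS library held 58495112 in 5514, of which 5641 and 5437 passed the cell filters with medians of 4790 and 8537 UMIs. The libraries shared 15 barcode sequences. Barcodes with markers of another lineage made up 29.9% of Control and 10.8% of TTS cells and were set aside, as were 120 Control and 553 TTS barcodes with neutrophil markers and macrophage or monocyte transcripts together. A further 111 Control cells (1.97%) and 939 TTS cells (17.3%) met no gate and are in no class. Ratios were computed for 9 classes with at least 10 cells in each library. These were classical monocytes (30 Control and 355 TTS cells), nonclassical monocytes (37 and 22), resident macrophages (512 and 251), MHC class II-high macrophages (237 and 50), Ccr2 macrophages (108 and 921), cDC1 (36 and 51), cDC2 (26 and 185), plasmacytoid DCs (16 and 47), and neutrophils (105 and 43). Every marker of the own list was detected in both libraries for both monocyte classes, resident macrophages, and all 3 DC classes, 7 of 8 were detected in neutrophils, and all 10 macrophage markers were detected in Ccr2 and MHC class II-high macrophages. No marker of the macrophage or MHC class II lists was among the 10 leading genes of the Control MHC class II-high macrophages, which were led by Cd207 and Mmp12. They held Fabp4, which stands in the endothelial marker list but is not by itself evidence of endothelial cells. The 10 leading genes of the Control Ccr2 macrophages held no macrophage marker but Chi3l3 and Ccr2 of the classical monocyte list and Tnip3 of the cDC2 list.

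Levels are given as CPM, in which the summed UMIs of a gene are divided by all UMIs of the class and scaled to 1000000. They carry exact Poisson 95% intervals in parentheses, and log2 ratios are TTS over Control with 95% counting intervals. These intervals cover counting error only. Each group was 1 library, so the groups could not be compared against a spread between replicates, no test was possible, and a 2-fold difference is used only as a size. UMIs were counted at 3′ ends and not divided by length, so levels are compared between classes and not between genes. Fewer expressing cells and fewer transcripts per cell cannot be told apart from these sums.

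For 6 of the 9 factors the leading myeloid class was the same in both libraries. Cebpb was highest in neutrophils, Irf8 and Irf4 in plasmacytoid DCs, Batf3 in cDC1, Maf in resident macrophages, and Cebpa in macrophages outside the named subsets, in both Control and TTS. For Irf4 and Cebpa, however, the intervals of the leading and next classes overlapped in both libraries. Spi1, Klf4, and Zeb2 had different leading classes in the libraries, but in TTS the intervals of their leading and next classes overlapped. Between the highest and the lowest class, the Control levels of Irf8 differed 110-fold and those of Cebpb 87.0-fold, whereas those of Spi1 differed 13.6-fold. In TTS the spread of Spi1 was 2.10-fold and that of Irf8 was 185-fold. Spi1 was thus the most even of the members with a UMI in every class in TTS.

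**Figure D1:**
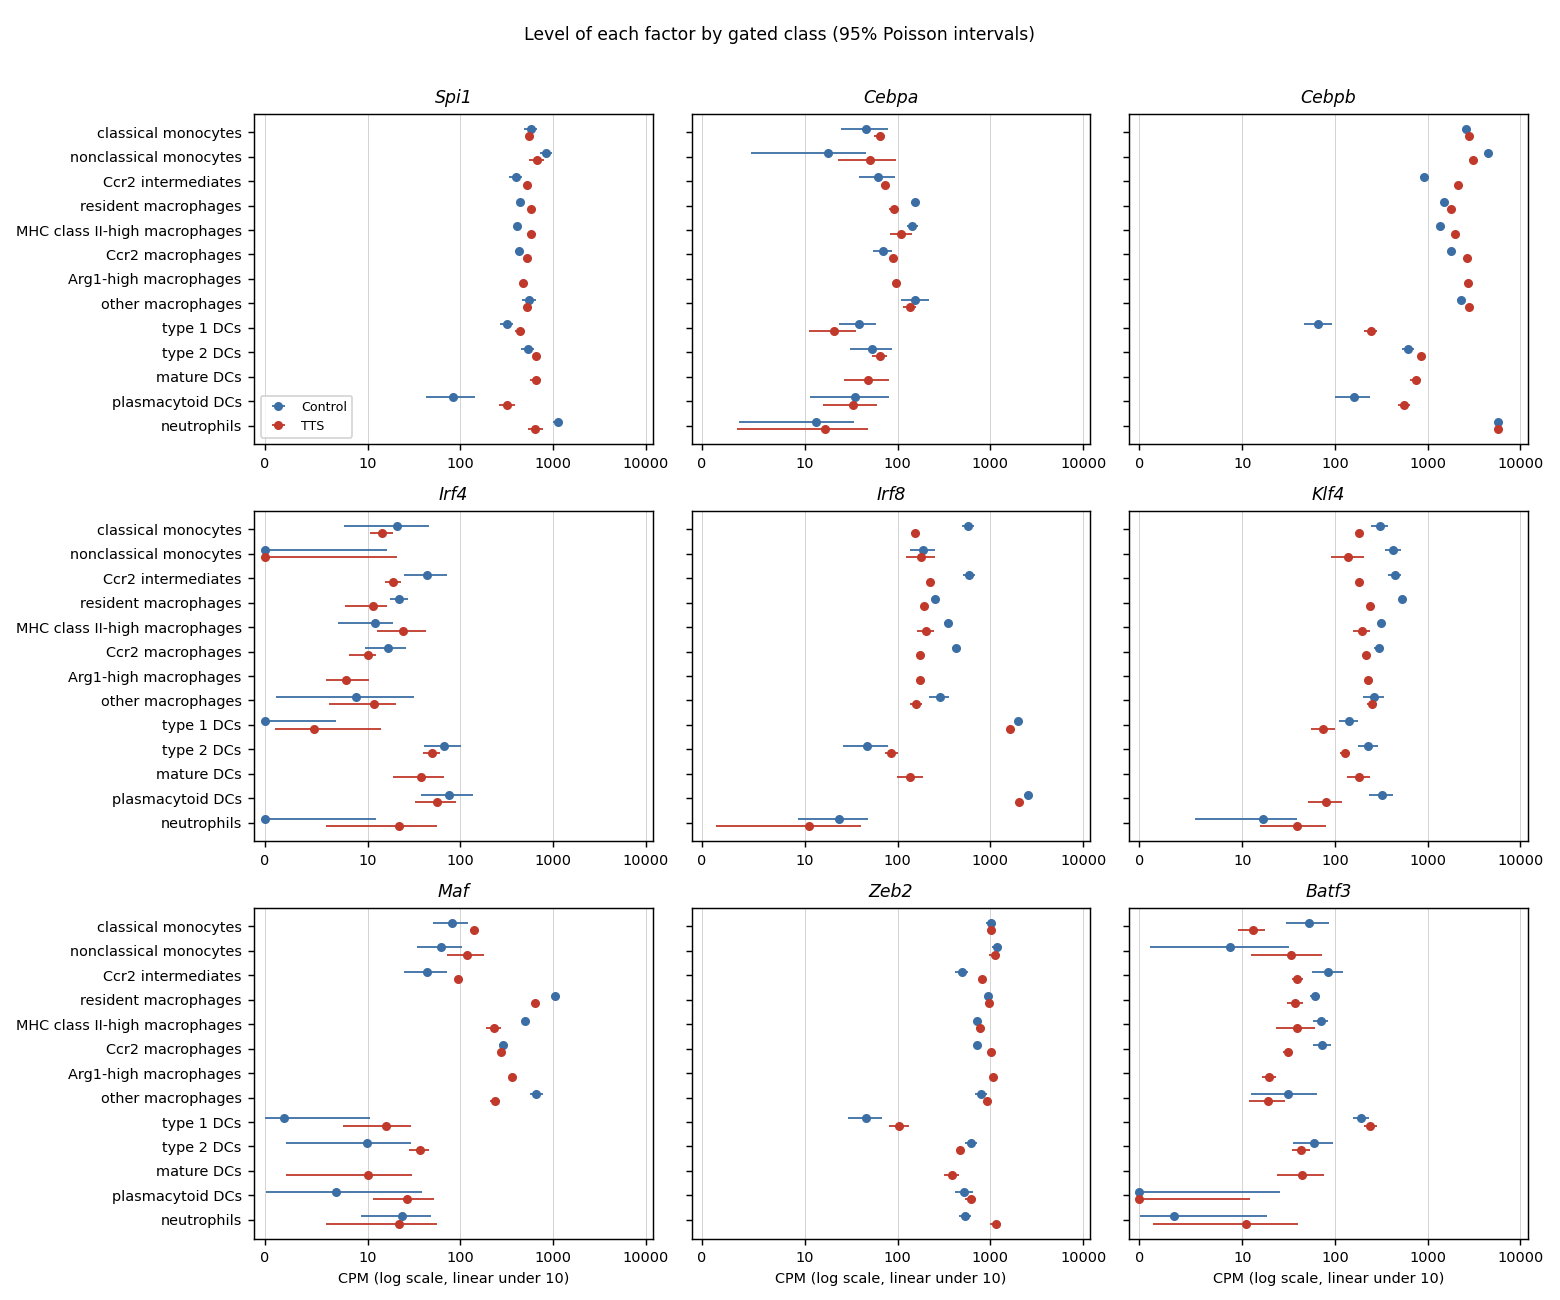
Level of each factor in CPM (horizontal axis, logarithmic above 10 and linear below) in each gated class with at least 10 cells, for Control (blue) and TTS (red), with bars for the exact Poisson 95% intervals. Irf8 stands at or above 1610 CPM in cDC1 and plasmacytoid DCs of both libraries, Maf is highest in resident macrophages, and Cebpb stands at 5762 and 5697 CPM in neutrophils.

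Between the libraries, most member levels stayed within 2-fold. Of 67 pairs of a member and a class with at least 20 UMIs, 7 were at least 2-fold higher in TTS, 8 were at least 2-fold lower, and 52 lay between. In classical monocytes, 2 of 9 members (Irf8 and Batf3) were at least 2-fold lower and 0 were higher, beside 19.4% of all 8443 genes lower and 11.1% higher. In Ccr2 macrophages the same 2 of 9 were lower and 0 were higher, beside 14.9% lower and 9.52% higher among 10538 genes.
Resident macrophages had 1 of 9 members lower (Klf4) and 0 higher, beside 9.33% and 8.6% of 10466 genes. MHC class II-high macrophages had 1 of 9 lower (Maf) and 1 higher (Irf4), beside 13.8% and 10.6% of 7753 genes. Nonclassical monocytes had 1 of 6 lower (Klf4) and 0 higher, beside 14.2% and 10.9% of 3298 genes.
In cDC1, 2 of 7 members (Cebpb and Zeb2) were higher and 0 were lower, beside 9.46% higher and 8.1% lower of 5752 genes. In cDC2, 1 of 9 (Maf) was higher and 0 were lower, beside 12.3% and 10.1% of 7275 genes. Plasmacytoid DCs had 2 of 6 higher (Spi1 and Cebpb) and 1 lower (Klf4), beside 9.72% and 6% of 3816 genes, and neutrophils had 1 of 3 higher (Zeb2) and 0 lower, beside 7.52% and 13.1% of 2780 genes.
The median log2 ratio of the members was -0.71 in resident macrophages, where that of all genes was -0.02. In classical monocytes both medians were below 0, at -0.06 for the members and -0.23 for all genes, and in cDC1 they were 0.31 and 0.11. The median of all genes also lay beyond 0.1 in neutrophils, at -0.17, and in Ccr2 macrophages, at -0.11. The counts of members called in these classes are too small to set against the shares of all genes.

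**Figure D2:**
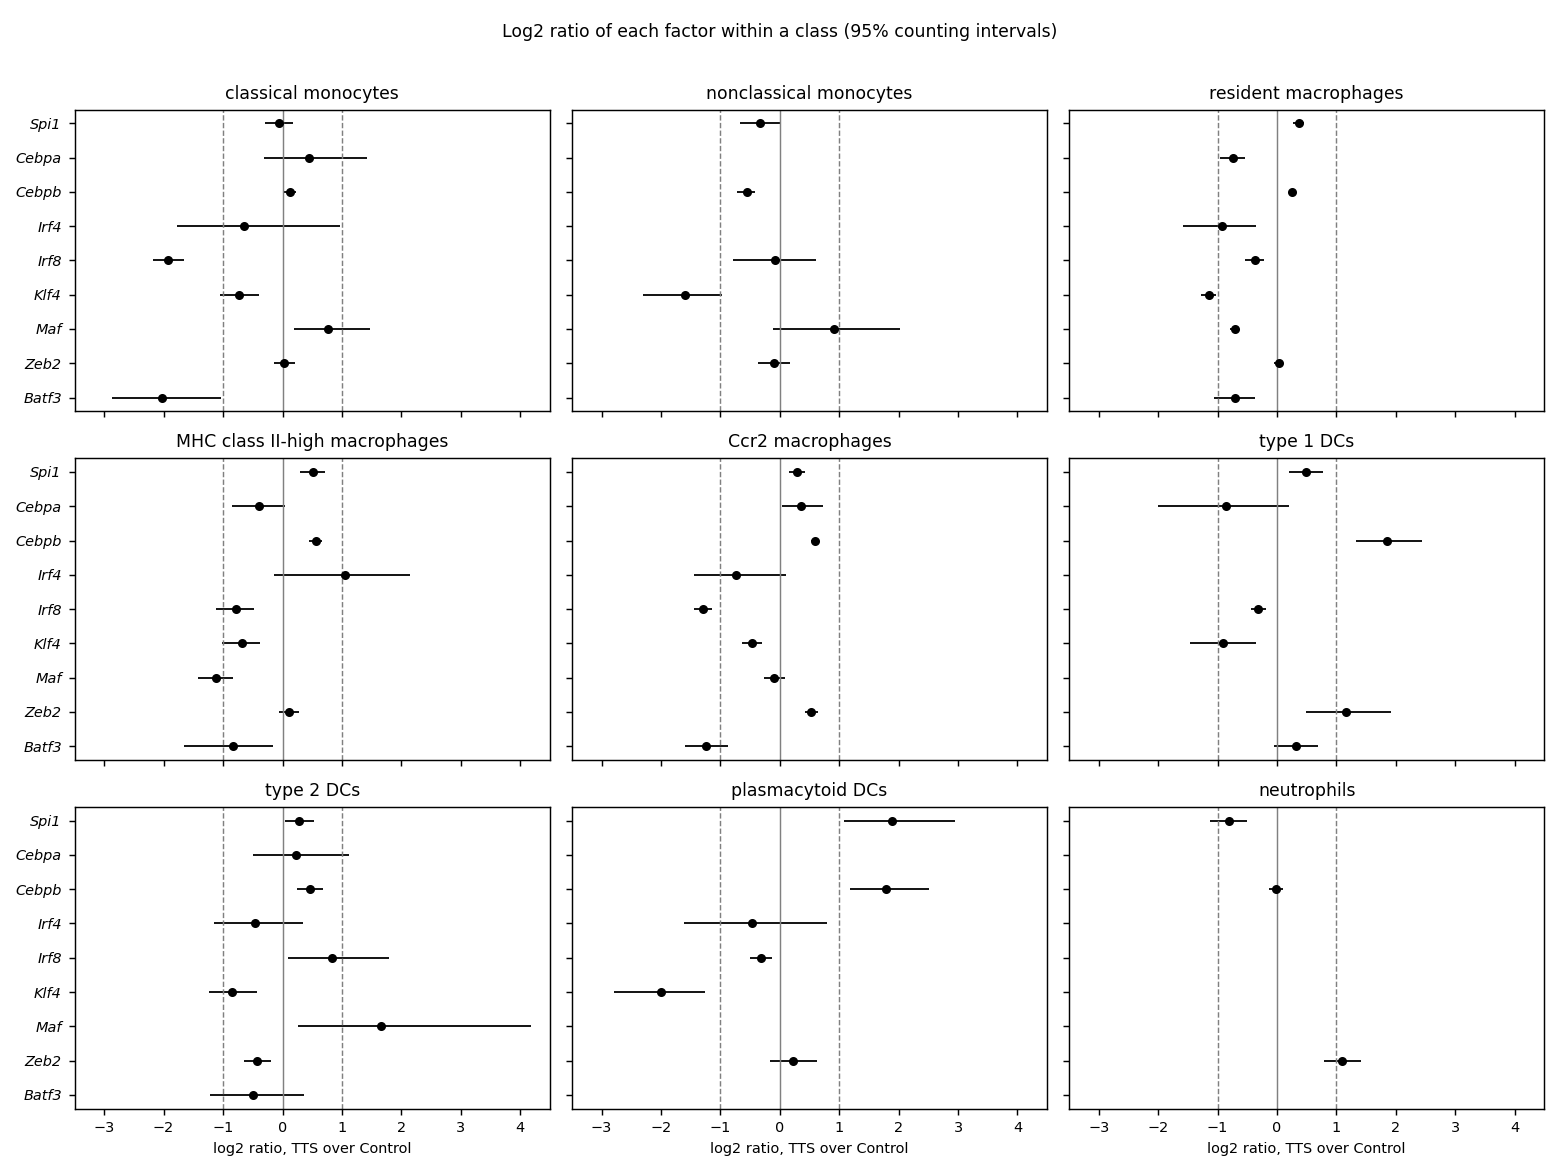
Log2 ratio of TTS over Control (horizontal axis) for each factor in 9 gated classes, with bars for 95% counting intervals, for factors with at least 20 UMIs over both libraries. The dashed lines mark 2-fold, and 52 of 67 points lie between them, with Irf8 and Batf3 near -2 in classical monocytes.

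Spi1 was present in every myeloid class (gene at chr2:91082390-91115756, plus strand). In Control it was highest in neutrophils at 1127 CPM (1010 to 1254) and next in nonclassical monocytes at 845 (730 to 974), 2 intervals that did not overlap. In TTS neutrophils it was at 645 (534 to 773), a log2 ratio of -0.80 (-1.12 to -0.50), which was -0.048 with barcodes of another lineage, and those with macrophage transcripts, kept. In TTS the leading classes could not be ordered, since nonclassical monocytes at 671, mature DCs at 651, cDC2 at 649, and neutrophils at 645 CPM had overlapping intervals. Resident macrophages went from 445 to 572 CPM, a log2 ratio of 0.36 (0.26 to 0.46), and MHC class II-high macrophages from 412 to 585, a log2 ratio of 0.51 (0.30 to 0.71). Both macrophage differences lay beyond counting error and under 2-fold. Classical monocytes were at 573 and 551 CPM, which differed by less than counting error.

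Cebpb was the C/EBP gene with most of the family's UMIs in monocytes, macrophages, and neutrophils (gene at chr2:167688915-167690418, plus strand). Neutrophils were at 5762 CPM (5494 to 6040) in Control and 5697 (5354 to 6055) in TTS, which overlap. Nonclassical monocytes were next in both libraries, at 4500 (4229 to 4785) and 3053 (2802 to 3320), a log2 ratio of -0.56 (-0.71 to -0.41). Macrophage classes had ratios of the opposite sign. Ccr2 macrophages were at 1781 CPM in Control and 2677 in TTS, a log2 ratio of 0.59 (0.52 to 0.66), MHC class II-high macrophages at 1351 and 1991, a ratio of 0.56 (0.45 to 0.67), and resident macrophages at 1502 and 1784, a ratio of 0.25 (0.19 to 0.30). Among resident barcodes at or over the MHC class II limit, 314 in Control and 47 in TTS, the Cebpb ratio was -0.24. The share of Cebpb among the UMIs of Cebpa, Cebpb, Cebpd, and Cebpe was 81.8% (80.9 to 82.7) in Control resident macrophages and 87.9% (87.1 to 88.8) in TTS. In neutrophils it was 88.7% (87.2 to 90.1) and 92.0% (90.2 to 93.5).
Cebpa had its highest levels in macrophages (gene at chr7:35119293-35121928, plus strand). Resident macrophages were at 153 CPM (141 to 166) in Control and 91.1 (80.3 to 103) in TTS, a log2 ratio of -0.75 (-0.97 to -0.54). In Ccr2 macrophages the levels were 69.3 and 89.5 CPM, a ratio of 0.36 (0.03 to 0.73). Neutrophils held only 4 Control and 3 TTS UMIs of this granulocyte factor.

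Among the myeloid classes Irf8 was highest in plasmacytoid DCs and cDC1, and it was lower in TTS classical monocytes and macrophages (gene at chr8:120736358-120756694, plus strand). Plasmacytoid DCs were at 2549 CPM (2295 to 2822) in Control and 2045 (1887 to 2212) in TTS, and cDC1 at 2005 (1886 to 2130) and 1610 (1512 to 1712). The log2 ratios were -0.32 (-0.51 to -0.13) in plasmacytoid DCs and -0.32 (-0.44 to -0.19) in cDC1. Every cDC1 barcode of both libraries held an Irf8 UMI, and the median cDC1 had 18.3 UMIs of Irf8 per 10000 in Control and 14.3 in TTS.
In classical monocytes Irf8 was at 577 CPM (492 to 672) in Control and 152 (139 to 166) in TTS, a log2 ratio of -1.93 (-2.18 to -1.66). The median Control monocyte had 3.14 UMIs per 10000 and the median TTS monocyte 0.32. After each cell was thinned to 1000 UMIs, 36.7% of Control (11 of 30; exact Clopper-Pearson 95% interval 19.9 to 56.1) and 12.4% of TTS classical monocytes (44 of 355; 9.15 to 16.3) had an Irf8 UMI. Without thinning the shares were 86.7% and 50.4%. The background in ILC2s, lymphoid cells that should lack the gene, was 1.31% in Control and 0 of 78 cells in TTS, which allows a share of up to 3.85% at 3 cells of the total. Median depths were 9566 and 8543 UMIs in the monocytes and 5659 and 3528 in the ILC2s.
The Control classical monocytes also held DC transcripts. Flt3, a receptor of DCs and their precursors, was at 189 CPM in them and 24.9 in TTS, and the summed plasmacytoid DC marker list was at 140 CPM, with 3 of 5 markers detected, and 35.7 CPM, with 4 of 5 detected. Leaving out barcodes with a UMI of Siglech, Flt3, or Cd209a, an alternative chosen after the data were seen, kept 15 Control and 268 TTS monocytes and gave an Irf8 log2 ratio of -1.61.
Ccr2 macrophages followed the same direction, with Irf8 at 423 CPM (386 to 464) in Control and 173 (165 to 182) in TTS and a log2 ratio of -1.29 (-1.44 to -1.14). Part of the Control level came from few barcodes. With the barcodes over 25000 UMIs left out, 99 of 108 Control barcodes kept 210 of 464 Irf8 UMIs, and the ratio was -0.59. The Control class also held more MHC class II, at 53308 CPM for its 4 genes against 8131 in TTS, and among barcodes at or over the MHC class II limit, 95 in Control and 214 in TTS, the ratio was -0.999. In MHC class II-high macrophages Irf8 was at 347 and 201 CPM, a ratio of -0.78 (-1.11 to -0.48) that was 0.20 with gates on thinned cells, and in resident macrophages at 251 and 193, a ratio of -0.38 (-0.53 to -0.23). Nonclassical monocytes were at 189 and 179 CPM, within counting error. Irf8 was therefore lower beyond counting error in classical monocytes, 3 macrophage classes, plasmacytoid DCs, and cDC1. In cDC2, where its level was low, the summed Irf8 level was higher in TTS beyond counting error, at 46.6 CPM from 14 UMIs and 85.7 CPM from 155 UMIs. The ratio of 0.83 (0.09 to 1.78) stayed above 0 in all 16 alternatives with a value, but was 0.20 with cells thinned before summing. An Irf8 UMI was held by 34.6% of 26 Control and 37.3% of 185 TTS cDC2, and the median was 0 in both. The highest TTS cDC2 barcode had 40.4 UMIs of Irf8 per 10000, where the 90th percentile was 1.74. Neutrophils held 7 and 2 UMIs.

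Batf3, the partner of IRF8 in cDC1, was highest in cDC1 in both libraries (gene at chr1:191097847-191108945, plus strand). Control cDC1 had 193 CPM (157 to 234) and TTS cDC1 240 (203 to 281), a log2 ratio of 0.31 (-0.06 to 0.69), which counting error spans. The cDC1 interval did not overlap that of the next class in either library. Plasmacytoid DCs held no Batf3 UMI, and 3 UMIs would be 20.7 CPM in Control and 9.88 in TTS.
In classical monocytes and macrophages, Batf3 was lower in TTS, as was Irf8. Classical monocytes were at 52.4 CPM (29.3 to 86.5) from 15 UMIs and 13.2 (9.61 to 17.6) from 45 UMIs, a ratio of -2.02 (-2.86 to -1.04). Ccr2 macrophages were at 73.0 and 30.9 CPM, a ratio of -1.24 (-1.60 to -0.86), and -0.68 among MHC class II-high barcodes only. Resident macrophages were at 60.5 and 36.9 CPM, with a ratio of -0.71 (-1.06 to -0.38). MHC class II-high macrophages were at 70.2 and 38.5 CPM with a ratio of -0.84 (-1.65 to -0.16), which was 0.37 with cells thinned before summing (16 and 4 UMIs) and 0.013 with gates on thinned cells. Irf8 and Batf3 were both lower in classical monocytes, Ccr2 macrophages, and resident macrophages, and in MHC class II-high macrophages the direction of both turned with gates on thinned cells.
Irf4 was scarce (gene at chr13:30749226-30766976, plus strand). Its highest levels were 76.0 CPM (37.9 to 136) in Control and 56.0 (32.6 to 89.6) in TTS plasmacytoid DCs, and 66.5 (40.6 to 103) and 49.2 (39.5 to 60.5) in cDC2, so these 2 classes overlapped. MHC class II-high macrophages were at 11.9 and 24.3 CPM, and the log2 ratio of 1.05 had an interval of -0.15 to 2.15, from 19 and 12 UMIs. The balance of the 2 IRF genes differed between DC classes. Irf8 took 100% of their summed UMIs in Control cDC1 and 99.7% in TTS, but 41.2% (24.6 to 59.3) and 63.5% (57.1 to 69.6) in cDC2.

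Klf4 was lower in TTS in each monocyte, macrophage, and DC class with a ratio (gene at chr4:55527143-55532466, minus strand). Resident macrophages were at 531 CPM (509 to 554) in Control and 240 (222 to 259) in TTS, a log2 ratio of -1.15 (-1.27 to -1.02), and the median cell had 2.55 and 1.31 UMIs per 10000. Nonclassical monocytes were at 427 (346 to 521) and 140 (90.5 to 206), a ratio of -1.59 (-2.31 to -0.97). Both pairs of intervals were separate. The ratio in nonclassical monocytes was -0.57 with the most abundant marker of every myeloid gate list left out at once. That in resident macrophages was -0.75 with gates on thinned cells.
Classical monocytes were at 304 and 183 CPM with a ratio of -0.74, MHC class II-high macrophages at 315 and 194 with -0.69, Ccr2 macrophages at 296 and 215 with -0.47, cDC1 at 140 and 74.7 with -0.90, and cDC2 at 229 and 128 with -0.85. None of these 5 intervals included 0. Without DC barcodes holding monocyte or macrophage UMIs, however, the cDC2 ratio was -0.0093, from 32 and 95 UMIs in 19 and 79 cells. Plasmacytoid DCs were at 318 and 79.0 CPM with a ratio of -1.99, but only 16 Control cells stood behind it. The direction was the opposite when the most abundant marker of every myeloid gate list was left out at once, among them Siglech and Apoe. The ratio was then 2.83, from 2 and 35 UMIs in 12 and 30 cells. Without DC barcodes holding monocyte or macrophage UMIs, the plasmacytoid DC ratio was -4.07. Genes of the immediate-early response, which is rapidly induced by stimulation or tissue dissociation, had lower TTS levels in the same macrophages. Fos was at 2142 CPM in Control and 1503 in TTS resident macrophages, Jun at 1539 and 1088, Egr1 at 1199 and 556, and Atf3 at 1102 and 691. The set was chosen after the data were seen and also held Hspa1a, whose level is not given. The part of these 4 genes in the Klf4 difference was not tested.

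Maf followed the resident macrophages (gene at chr8:115682942-115707794, minus strand). These cells had 1047 CPM (1015 to 1079) in the Control library and 638 (609 to 668) in the TTS library, a log2 ratio of -0.71 (-0.80 to -0.63). MHC class II-high macrophages were at 502 (468 to 538) and 231 (190 to 277), a ratio of -1.11 (-1.42 to -0.84), which was -0.51 with barcodes of another lineage kept. In Ccr2 macrophages the levels of 289 and 272 CPM overlapped. The Ccr2 macrophage ratio was -0.09 (-0.26 to 0.08), but -0.54 among their barcodes at or over the MHC class II limit. With all barcodes of a class, Maf was thus lower in 2 of the macrophage classes and not detectably different in the third.
Resident macrophages of the TTS library held more transcripts of the classical monocyte list, at 3687 CPM against 1689, and less MHC class II, at 7970 against 28598. Among resident barcodes at or over the MHC class II limit, 314 in Control and 47 in TTS, the Maf ratio was -0.84.
In classical monocytes Maf was at 80.4 CPM (51.0 to 121) and 140 (127 to 153), a ratio of 0.77 (0.19 to 1.47). The ratio stayed above 0 in all 17 alternatives. It was 0.26 without monocyte barcodes holding DC UMIs and 4.77 with gates on thinned cells. Just below the macrophage limit lay 1 of 30 Control and 77 of 355 TTS classical monocytes, and their part in the difference was not tested. In cDC2 it was at 9.98 and 36.5 CPM, and the ratio of 1.66 (0.26 to 4.18) rested on 3 Control UMIs and was 0.27 with barcodes of another lineage kept.

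Zeb2 was high in all monocyte and macrophage classes and low in cDC1, the class whose identity it restrains (gene at chr2:44983632-45117395, minus strand). In Control it ranged from 1189 CPM in nonclassical monocytes to 45.4 in cDC1. Resident macrophages were at 944 and 961 CPM and classical monocytes at 1003 and 1022, which overlap. Ccr2 macrophages were at 710 (661 to 761) and 1024 (1004 to 1044), a ratio of 0.53 (0.42 to 0.64), and cDC2 at 625 and 466, a ratio of -0.43 (-0.65 to -0.19). Without DC barcodes holding monocyte or macrophage UMIs, the cDC2 ratio was -1.19.
Neutrophils had the clearest difference, with 535 CPM (456 to 625) in Control and 1147 (996 to 1314) in TTS and a ratio of 1.10 (0.80 to 1.41). The median neutrophil had 3.60 and 12.3 UMIs of Zeb2 per 10000, and 30.5% of 105 Control and 65.1% of 43 TTS neutrophils had a UMI after thinning, against 0.654% and 2.56% of ILC2s. The ratio was 0.63 with barcodes of another lineage, and those with macrophage transcripts, kept. The macrophage list, with 10 of 10 markers detected, was at 462 CPM in Control and 364 in TTS neutrophils, and the classical monocyte list at 791 (3 of 6 detected) and 1621 (5 of 6). Their part in the difference was not tested.

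**Figure D3:**
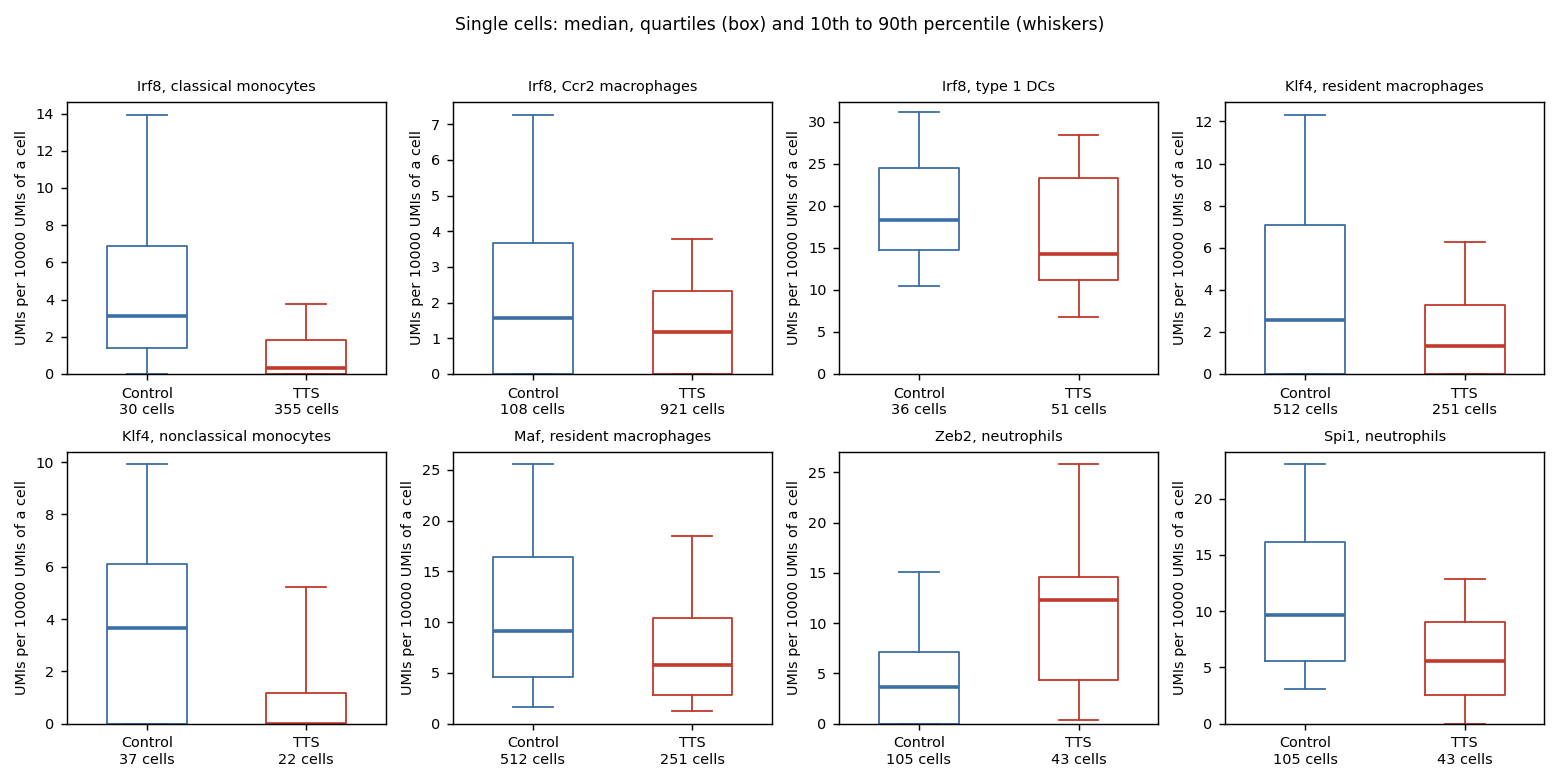
UMIs of a factor per 10000 UMIs of a cell (vertical axis) in 8 pairs of factor and class, for Control (blue) and TTS (red). Lines are medians, boxes quartiles, and whiskers the 10th and 90th percentiles. The median of Irf8 in classical monocytes is 3.14 in Control and 0.32 in TTS, and that of Zeb2 in neutrophils is 3.60 and 12.3.

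Cebpb was at least 2-fold higher in TTS cDC1 and plasmacytoid DCs, Zeb2 in cDC1, and Spi1 in plasmacytoid DCs. Both classes also held more transcripts of other myeloid cells in TTS, and the part of these transcripts in the differences was not tested. Cebpb in cDC1 was at 66.2 CPM (46.1 to 92.1) in Control and 242 (205 to 283) in TTS, a log2 ratio of 1.85 (1.33 to 2.44), and Zeb2 was at 45.4 (29.1 to 67.6) and 103 (79.7 to 132), a ratio of 1.17 (0.49 to 1.93). The classical monocyte list was at 634 CPM (5 of 6 markers detected) and 1956 CPM (6 of 6) in the same cells. Without barcodes holding a UMI of Chi3l3, F13a1, or Fcgr1, a step chosen after the data were seen, 35 Control and 34 TTS cDC1 remained, and the ratios were 0.82 for Cebpb and -0.79 for Zeb2. Single barcodes weighed heavily here: with barcodes over 25000 UMIs left out, 1 Control barcode was lost, the Control UMIs of Zeb2 went from 24 to 4 and those of Cebpb from 35 to 4, and the ratios were 3.52 for Zeb2 and 4.74 for Cebpb.
Plasmacytoid DCs gave the same picture for Cebpb, at 159 CPM (101 to 238) and 556 (476 to 647), a ratio of 1.78 (1.18 to 2.51). The lysozyme gene Lyz2 of monocytes, macrophages, and neutrophils was at 20.7 and 1669 CPM in them, and the macrophage list at 159 CPM (4 of 10 markers detected) and 688 CPM (9 of 10). Without the same barcodes, 16 Control and 34 TTS cells remained, and the Cebpb ratio was -0.94. The median plasmacytoid DC had 0.51 UMIs of Cebpb per 10000 in Control and 0 in TTS, and the 90th percentiles were 4.39 and 8.88. A Cebpb UMI was held by 50% of the Control and 38.3% of the TTS plasmacytoid DCs. Spi1, at 82.9 (42.8 to 145) and 319 (259 to 390), had a ratio of 1.89 (1.08 to 2.95). The median plasmacytoid DC held no Spi1 UMI in either library, and the ratio was 1.70 without the same barcodes, from 12 and 51 UMIs. In lymphoid cells Cebpb lay between 326 and 560 CPM in Control and between 464 and 733 in TTS, above its level in cDC1.

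No ratio was computed for 4 classes, which were found almost only in TTS or held unlike cells, among them 40 Control and 131 TTS macrophages outside the named subsets. Arg1-high macrophages, 2 Control and 535 TTS cells, carried Cebpb at 2692 CPM (2653 to 2731), Zeb2 at 1080 (1056 to 1105), Spi1 at 471 (455 to 488), Maf at 358 (344 to 373), Klf4 at 226 (215 to 238), and Irf8 at 173 (163 to 183). Their levels of Cebpb and Irf8 overlapped those of TTS Ccr2 macrophages, and their Maf level was above it and below that of TTS resident macrophages.
Mature DCs, 1 Control and 31 TTS cells, had Spi1 at 651 CPM (562 to 750), Zeb2 at 385 (317 to 463), and Irf8 at 136 (97.4 to 186). Ccr2-positive cells below the macrophage limit and in no other class numbered 50 in Control and 590 in TTS. They could still hold macrophage transcripts, and 79 of the TTS cells lay just below the limit. The Control cells were led by Il6, Gata2, and Cyp11a1 and not by monocyte genes, so no ratio is given. In TTS their Cebpb was at 2127 CPM, Irf8 at 223, and Maf at 95.5.

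Among 31 other myeloid transcription factors, 228 pairs of gene and class had at least 20 UMIs, of which 35 were at least 2-fold higher in TTS and 42 lower, with a median log2 ratio of -0.23. Of all genes, 7.52% to 12.3% were at least 2-fold higher and 6% to 19.4% lower, depending on the class. Hif1a, the factor of the hypoxia response, had 1 of the 3 highest ratios in 5 classes, with 73.0 and 270 CPM in Ccr2 macrophages (ratio 1.88; 1.57 to 2.23), and 56.2 and 160 CPM in resident macrophages (1.503; 1.27 to 1.74). Bhlhe40 was higher in resident macrophages (30.3 and 142 CPM) and MHC class II-high macrophages (38.9 and 286 CPM). Id2, an inhibitor of E proteins, was at 17.5 CPM in Control and 367 in TTS classical monocytes, a ratio of 4.25 (3.16 to 6.02), beside the lower Irf8 in the same cells. Its E protein partner Tcf4 was at 538 and 110 CPM there, a ratio of -2.30 (-2.57 to -2.01). Tcf4 is also a factor of plasmacytoid DCs, whose marker list was at 140 and 35.7 CPM in these monocytes, and the part of such transcripts in the difference was not tested.
Etv3 was lower in Ccr2 macrophages, at 398 and 74.7 CPM (ratio -2.41), and in resident macrophages, at 284 and 89.7 (ratio -1.66). Spic, a factor of iron-recycling macrophages, was at 23.1 and 4.96 CPM in resident macrophages, and Irf1, an interferon-induced factor, at 222 and 107. In nonclassical monocytes Bcl6 was at 255 and 39.1 CPM and Klf2 at 524 and 151, next to the lower Klf4.
The list of 9 growth factor receptors and lineage genes had 12 of 70 pairs higher and 9 lower, with a median of -0.09, beside the same shares of all genes. Itgam, the integrin CD11b, was at 237 and 726 CPM in resident macrophages (ratio 1.62; 1.504 to 1.73), Csf1r, the receptor of M-CSF, at 958 and 399 in MHC class II-high macrophages (ratio -1.26), and Csf3r, the receptor of G-CSF and a gate marker, at 2696 and 1274 in neutrophils (ratio -1.08).

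The genes whose levels most resembled each factor were found by correlation of log2(CPM + 10) over 23 points, each a class with at least 20 cells in 1 library, among 13293 genes with at least 20 UMIs. The points of a library share its depth, and the values are a description. Zeb2 was most like Fcer1g (r = 0.96), Sirpa (0.93), and Cybb (0.89). Cebpb was most like Igsf6 (0.95), Dok3 (0.94), and Cyp4f18 (0.94), and Maf like Abca1, Rnase4, and Pdlim4 (0.95 each). For Batf3 the leading gene was Prkar2a (0.92), followed by Naaa (0.88) and Lpcat1 (0.86). Irf8 was most like Txndc15 (0.89), Klf4 like Plxnb2 (0.89), Cebpa like Lmna (0.89), Spi1 like Msrb1 (0.86), and Irf4 like Trappc5 (0.83). With rank correlation, 13 of the 27 leading genes were the same.

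The 15 ratios past 2-fold differed in how far they depended on the settings. Irf8 in classical monocytes, Batf3 in classical monocytes, and Spi1 in plasmacytoid DCs stayed past 2-fold in the same direction in each alternative that gave a value. The other 12 came within 2-fold in at least 1 alternative, and 4 of them changed sign in at least 1: Cebpb and Klf4 in plasmacytoid DCs, Zeb2 in cDC1, and Irf4 in MHC class II-high macrophages.

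**Figure D4:**
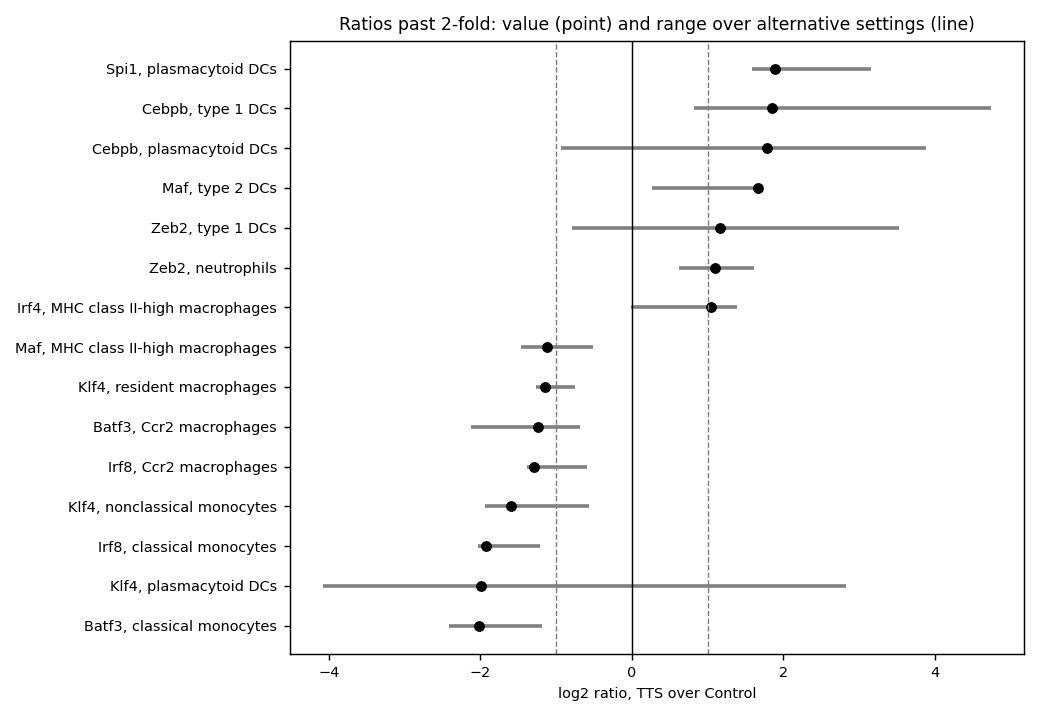
Log2 ratio of TTS over Control (horizontal axis) for the 15 pairs of factor and class past 2-fold, as reported (points) and over all alternative settings (lines). Irf8 in classical monocytes stays between -2.03 and -1.21, whereas Klf4 and Cebpb in plasmacytoid DCs and Zeb2 in cDC1 reach across 0.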

How the data were processed

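Per the labels and the methods, CD45+ cells of 3 hearts per group were sorted and profiled with the 10x Genomics v3 kit. According to the submitters' processing notes, the authors used bcl2fastq 2.19.1.403, UMI-tools 1.0.0, STAR 2.7.3a, and featureCounts 1.6.4 on mm10, and deposited UMI counts per gene and barcode without normalization. Older gene symbols (Chi3l3, Emr1, Emr4) were used as the files give them.

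A barcode was kept as a cell if over 500 but under 6000 genes were detected and mitochondrial transcripts took less than 25% of its UMIs. Cells were gated by summed markers per 10000 UMIs (for example 25 for macrophages, 20 for classical monocytes, 50 for neutrophils, and 100 for MHC class II) and by a minimum number of different markers. Macrophages were split in the order resident, Arg1 (5), Ccr2 (2), MHC class II, other. No doublet caller was run, and barcodes with markers of another lineage were left out. The gate limits were set after the data were seen. UMIs were summed per class and library, and 0.5 UMI was added for ratios of genes with at least 20 UMIs. Shares of cells were taken after thinning to 1000 UMIs, which left out 14 Control and 0 TTS cells. Genes named beside the members are, in each class, those among the 3 largest ratios each way with at least 50 UMIs, and per member the 3 genes most like it, with marker genes and members left out. Of these, the text gives some. The ratio step was tested on simulated counts of abundant genes in resident macrophages and cDC1, with counting error only. That test does not cover genes with few UMIs, the other classes, or single barcodes that weigh heavily. Python 3.11.15, numpy 2.4.6, scipy 1.17.1, pandas 2.3.3, and matplotlib 3.10.9 were used. Positions are from GENCODE release M21 (GRCm38), and promoters, found for 7 of 9 members, are from RefSeq (GRCm38.p6). For GAS, CRE core, AP-1, ETS, C/EBP, and ISRE motifs, both strands were searched.

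The members and lists were chosen with earlier results of these data known. The ratios were recomputed under 17 other settings, 4 of which were chosen after the data were seen. The values of 1 gene of the lists are not reported here.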

Additional observations from a re-analysis of the deposited data

Results flagged for a closer look

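Maf differed in opposite directions between classes, with a log2 ratio of 1.66 in type 2 DCs and -1.11 in MHC class II-high macrophages. The difference between the classes was not tested, and the first value rests on 3 Control UMIs. Irf8 was also measured outside the myeloid classes, where NK cells held 2481 CPM (2406 to 2558; 413 cells) in Control and 1544 CPM (1303 to 1815; 21 cells) in TTS. These levels are far above the 6.57 CPM of Control ILC2s, and they lie close to those of plasmacytoid DCs and cDC1.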

How the results depend on the processing

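Alternatives covered the gate limits, gate markers, depth, totals, centring, cell filters, and mixed barcodes. The count of pairs at least 2-fold higher was 7 and became 2 when cells were thinned to 1000 UMIs before summing, where 46 pairs had enough UMIs. The count at least 2-fold lower was 8 and became 13 with limits 2 times higher and 2 with gates on thinned cells, where 40 pairs had enough UMIs. In the other alternatives both counts were within 1.5 times of these. Of 1083 ratios under alternatives, 927 stayed inside the reported interval, 150 moved out of it, and 6 changed sign from a ratio past 2-fold. Irf4 in MHC class II-high macrophages became -0.0069 with barcodes of another lineage kept. Zeb2 in type 1 DCs became -0.25 with limits 2 times lower and -0.79 without DC barcodes holding monocyte or macrophage UMIs, and Cebpb in plasmacytoid DCs became -0.092 and -0.94 under the same settings. Klf4 in plasmacytoid DCs became 2.83 with the most abundant marker of every myeloid gate list left out at once. Beyond the fewer cells and UMIs that each setting leaves, the cause was not tested. No paired analysis was possible because each group was 1 pooled library. Classes of 16 to 51 cells, and Irf4, Cebpa, and Batf3 in most classes, are limited by few UMIs.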

Other observations

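Lymphoid cells of the same hearts carried several of the factors. In NK cells Zeb2, which also acts in NK cell maturation, was at 674 CPM (636 to 715) in Control and 137 (73.2 to 235) in TTS, the latter from 13 UMIs in 21 cells. ILC2s held Klf4 at 437 CPM (395 to 482) in Control and 380 (314 to 456) in TTS, which overlap, and Maf at 246 (215 to 281) and 129 (91.6 to 176). B cells held Irf4 at 111 CPM in Control and 109 in TTS, where the highest myeloid level was 76.0 and 56.0 CPM, in plasmacytoid DCs, with intervals that overlap those of B cells in both libraries, and Spi1 at 117 and 226 CPM.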
